A study of Mus musculus with 43 samples.

Results

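The thrombospondins Thbs1, Thbs2 and Thbs3 and the other matricellular proteins Tnc (tenascin C), Sparc and Postn (periostin) were followed through mouse colon epithelial organoids and mouse colon fibroblasts treated with the multi-kinase inhibitor regorafenib. The 6 genes were chosen by name, with earlier results of these data known. Among them, the study had named Thbs1 as one of the genes most raised by regorafenib in organoids. Each of the 6 has 1 row among the 52636 genes of the organoid table and 1 row among the 52636 genes of the fibroblast table. All 6 were measured in every library, but only Thbs1 and Tnc in the organoids, and all members other than Thbs3 in the fibroblasts, reached the level at which genes were tested.

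Matricellular proteins are secreted into the extracellular matrix, where they act on cells more than they build the scaffold. They bind integrins and other surface receptors, proteases, growth factors and the collagen network, and they change how firmly a cell holds its surroundings. In the adult gut most of them are made by stromal cells, at low levels, and rise with wounding, fibrosis and around tumours. THBS1 activates latent TGF-beta and signals through CD36 and CD47, and THBS2 is its close relative that also forms trimers, whereas THBS3 belongs to the pentameric thrombospondins. Tenascin C is a large hexameric glycoprotein that weakens cell adhesion to fibronectin, SPARC is a collagen-binding protein that helps collagen fibrils form, and periostin links collagen to integrins and is a product of activated fibroblasts.

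RNA sequencing was run on 43 libraries. The 24 organoid libraries came from 6 lines, each derived from 1 adult mouse that carried Vil-cre/ERT2, a tamoxifen-inducible Cre driven by the villin promoter in intestinal epithelium, and every mouse had been injected with tamoxifen. The 3 colonoid lines (M41, M40 and M1) were Apc wt/wt and the 3 tumoroid lines (F11, M3 and M14) were Apc flox/flox, so that tumoroids had lost Apc, the brake on Wnt signalling, in the epithelium alone. Over 6 days in Matrigel each line received vehicle (0.5% DMSO), regorafenib at 4 µM or at 8 µM, or 1 µM 5-FU, a fluoropyrimidine that blocks DNA synthesis, which gave 8 groups of 3 libraries. The 19 fibroblast libraries came from 4 wild-type colon lines of C57BL/6 mice (M3, M3(2), M1(2) and M11), exposed over 7 days to vehicle, regorafenib at 4 µM or at 10 µM, 1 µM autogramin-2, an autophagy inhibitor directed at GRAMD1A, or 4 µM regorafenib plus 1 µM autogramin-2. Each fibroblast group held 4 libraries except 10 µM regorafenib, which held 3 because line M11 had no library at that dose. Where known from the study, mice were 2 months old. The study describes each fibroblast line as coming from 1 mouse. The main fits treat libraries of 1 line as independent, and their p-values measure the spread between lines within a group. Where the line is fitted as a block, the p-values measure the spread of differences within lines. The names M1 and M3 recur in both tables and stand for different cultures.

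Sequence upstream of the start is shown for Tnc, the member that moved furthest in the organoids, and Postn, the member that moved furthest in the fibroblasts, because both windows hold a TATA-like motif, TATANA. The windows hold the 250 bases before the first base of the RefSeq transcript and were taken from the RefSeq promoter table of GRCm38.p6. Tnc lies on the minus strand (window chr4:64047016-64047265) and Postn on the plus strand (window chr3:54360857-54361106), and neither window overlaps an annotated exon. Both are written 5′ to 3′ on the strand of the gene, with matches to TATANA on either strand in capitals.
Tnc: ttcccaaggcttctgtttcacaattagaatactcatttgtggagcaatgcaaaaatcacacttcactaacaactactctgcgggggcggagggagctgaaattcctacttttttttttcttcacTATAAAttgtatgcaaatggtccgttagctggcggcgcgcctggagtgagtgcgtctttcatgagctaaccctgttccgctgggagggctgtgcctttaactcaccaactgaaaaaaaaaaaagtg
Postn: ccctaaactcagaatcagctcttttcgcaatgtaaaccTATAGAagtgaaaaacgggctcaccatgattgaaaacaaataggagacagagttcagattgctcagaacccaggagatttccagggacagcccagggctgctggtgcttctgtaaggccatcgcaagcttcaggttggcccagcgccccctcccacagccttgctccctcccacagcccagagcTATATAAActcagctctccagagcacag
The Tnc match began 126 bases before the start, and the Postn matches began 212, 28 and 26 bases before it, of which the last 2 overlap each other. The windows of Thbs2 and of a further Tnc start hold TATANA too, and TATANA occurred in 22.6% of the 32851 windows of this length in the table, so a match is common. The AP-1 motif TGANTCA (6.75% of windows), the TEAD motif GGAATG (12.6%) and the CArG box (1.47%) were searched on both strands too, and none of them was found in these letters or in the other windows of the members. Of the 6 members, 5 had an entry, with 7 starts between them. Thbs1 had no entry.

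In GRCm38 Thbs1 (ENSMUSG00000040152) lies at chr2:118111876-118127133 on the plus strand, Thbs2 (ENSMUSG00000023885) at chr17:14665500-14694235 on the minus strand and Thbs3 (ENSMUSG00000028047) at chr3:89215180-89226837 on the plus strand. Tnc (ENSMUSG00000028364) lies at chr4:63959785-64047015 on the minus strand, Sparc (ENSMUSG00000018593) at chr11:55394500-55423183 on the minus strand and Postn (ENSMUSG00000027750) at chr3:54361109-54391037 on the plus strand. Their merged exons span 6073, 7003, 4823, 7772, 3788 and 8702 bases in that order, and the values count reads over exons. In 3 cases part of these exons is shared with a gene on the opposite strand. Gm29233 covers 208 exon bases of Thbs1 (3.4%), Mtx1 covers 318 of Thbs3 (6.6%) and 8030451A03Rik covers 176 of Tnc (2.3%). The strand setting of the counting is not given in the sources used here, so reads from a gene and its antisense partner cannot be told apart in these stretches.

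Values are given in CP20M, the number of reads of a gene in a library scaled to 20000000 reads, without correction for gene length, so that 20 CP20M equal 1 CPM. The organoid libraries held 512591 to 22366361 counted reads (median 15697925) and the fibroblast libraries 7949937 to 12825870 (median 9039204). The library of colonoid line M41 at 4 µM stood apart as the shallowest, with 1 read worth 39.0 CP20M, and the next organoid library held 4371789 reads. Epithelial and fibroblast markers fitted the labels. The fibroblast libraries also held endothelial markers (5 genes), at 868 to 25435 CP20M against 17 to 119 in organoids. The summed level of 8 epithelial markers was 106355 to 349790 CP20M in organoids against 205 to 1633 in fibroblasts, and that of 8 fibroblast markers was 12 to 123 CP20M in organoids, with Lum at 0 in all 24 libraries, against 110998 to 186156 in fibroblasts.

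In vehicle every member stood higher in fibroblasts than in organoids, by a wide margin except for Thbs3, and Thbs1 was the member with the highest level in epithelium. Levels between genes are compared here as CP20M per kilobase of exon, as medians over the lines. In fibroblasts Thbs1 stood at 24467 per kilobase, the 17th highest of 52403 genes with a length, Sparc at 19450 (the 22nd) and Tnc at 8310 (the 64th). Postn followed at 804, Thbs2 at 492 and Thbs3 at 19.8. In vehicle colonoids and tumoroids Thbs1 stood at 153 and 94.5 per kilobase, Thbs3 at 6.01 and 9.12, and each of the other 4 members below 3. Thbs1 transcripts made up between 0.47% and 1.11% of the scaled total in the 19 fibroblast libraries and between 0.00203% and 0.11% in the 24 organoid libraries. The fibroblast and organoid tables were compared side by side only, with no test between them.

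**Figure D1:**
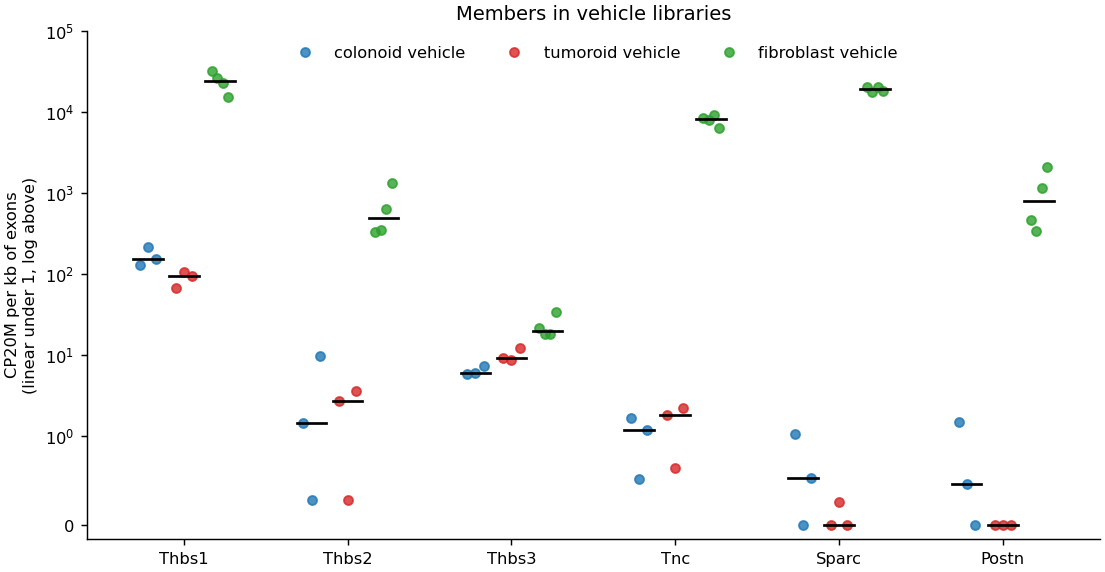
Levels of the 6 members in vehicle, in CP20M per kilobase of exon, with 1 point per line for colonoids, tumoroids and fibroblasts. The scale is linear under 1 and log above it. Thbs1, Sparc and Tnc lie highest in fibroblasts, and Thbs1 lies above every other member in the organoids.

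The first question was what regorafenib did to these genes in epithelium. Thbs1 was higher in every regorafenib library than in every vehicle library. In vehicle Thbs1 stood at 771, 1310 and 931 CP20M in colonoid lines M41, M40 and M1, a mean of 1004 ± 277 (SD, n = 3), and at 407, 632 and 574 CP20M in tumoroid lines F11, M3 and M14, a mean of 538 ± 117 (SD, n = 3). With 4 µM it was 2381, 2678 and 7229 CP20M in the same colonoid lines and 6662, 7004 and 6834 CP20M in the tumoroid lines, so the colonoid lines were spread and the tumoroid lines close together. With 8 µM it was 21905, 10815 and 5380 CP20M in colonoids and 1998, 5407 and 7296 CP20M in tumoroids, where line M41 was the highest of all 24 libraries and line F11 the lowest of the regorafenib libraries.

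Against the vehicle of its own line Thbs1 was higher in 12 of 12 regorafenib libraries, as were 6.64% of genes tested. The ratio ran from 2.04 to 7.77 in colonoids and from 11.08 to 16.4 in tumoroids with 4 µM, and from 5.78 to 28.4 and from 4.91 to 12.7 with 8 µM. Over both genotypes and doses the log2 ratio of regorafenib to vehicle, computed like all others here on CP20M + 20, was 2.98 (SE 0.32), 7.87-fold, and passed the threshold used for regorafenib in organoids, which was an adjusted p of 0.001 and a 1.5-fold change. By the same fit 4.97% of the 11320 genes tested, 563 genes, were called in either direction (1127 of 11274 without the shallow M41 library), and 1.87% lay higher in all 12 regorafenib libraries than in all 6 vehicle libraries. Of the 2 members tested, Thbs1 was called and without overlap. Tnc was too, but it passed the filter only through treated libraries, so its call and lack of overlap are description only.

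Tnc went from near absence to a low level. In vehicle it stood at 13, 4 and 9 CP20M in colonoid lines M41, M40 and M1 and at 14, 5 and 17 CP20M in tumoroid lines F11, M3 and M14, which is 43 reads in all 6 libraries together. With 4 µM it was 391, 236 and 251 CP20M in colonoids and 94, 128 and 639 CP20M in tumoroids, and with 8 µM 2977, 789 and 197 CP20M in colonoids and 38, 76 and 124 CP20M in tumoroids. Each of these 12 values exceeded the highest vehicle value of 17, and line M41 at 8 µM, with 1509 reads, was the highest, as for Thbs1. Tnc reached the 200 CP20M needed for testing only in treated libraries, so it entered the test through the group in which it was high, and its call is given as a description. For both genotypes together the log2 ratio was 3.16 (SE 0.47, adjusted p = 0.000219) with 20 CP20M added to each value, which understates ratios at such low values, and edgeR on the recovered reads gave 5.08.

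These are bulk libraries, in which more cells that make a transcript and more transcript per cell cannot be told apart. Over the same libraries the 8 fibroblast markers summed to 12 to 123 CP20M in vehicle and 13 to 118 with regorafenib or 5-FU, and Sparc, one of the most abundant transcripts of the fibroblast lines, did not exceed 11 CP20M in any organoid library. A 5-gene macrophage and leukocyte list summed to 423 to 573 CP20M in vehicle, 541 to 906 with 4 µM and 596 to 3245 with 8 µM. The higher sums came from Cd68, a lysosomal protein gene, with a median of 821 CP20M in colonoids and 997 in tumoroids at 8 µM against 55 and 134 in vehicle, while Adgre1 and Lyz2 were at 0 in all 6 libraries at 8 µM. The part of such cells in the Thbs1 and Tnc values was not tested beyond these levels.

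**Figure D2:**
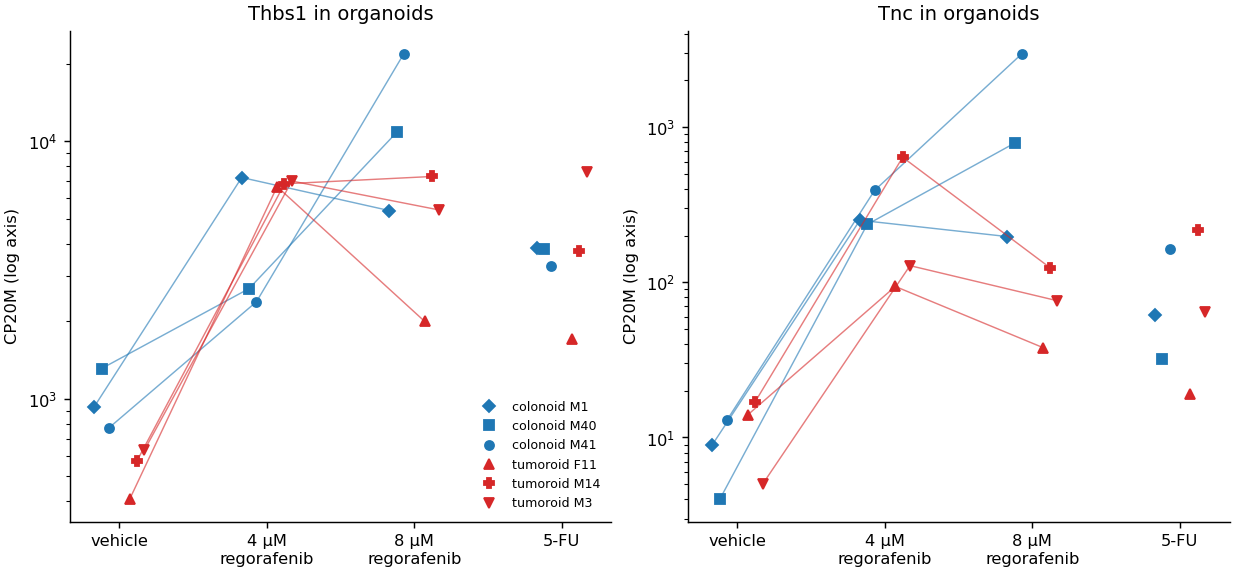
Thbs1 and Tnc in the 24 organoid libraries, in CP20M on a log axis, by genotype and treatment. For each organoid line 1 line joins the vehicle and regorafenib libraries, and the 5-FU point is not joined. All regorafenib and 5-FU points lie above all vehicle points for both genes, and colonoid line M41 reaches 21905 CP20M of Thbs1 and 2977 CP20M of Tnc at 8 µM.

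Within each genotype 1 of the 2 members was called, Tnc in colonoids and Thbs1 in tumoroids, the Tnc call again being a description. In colonoids Tnc was called, with a log2 ratio of 4.13 (SE 0.66, adjusted p = 0.000974), and Thbs1, at 2.65 (SE 0.45, adjusted p = 0.00143), missed the threshold by little, where 1.46% of genes were called. In tumoroids Thbs1 was called at 3.31 (SE 0.45, adjusted p = 0.000986) and Tnc, at 2.19 (SE 0.66, adjusted p = 0.0556), was not, where 0.203% of genes were called. With the organoid line as a block the tumoroid call of Thbs1 was lost (adjusted p = 0.00151). Without the shallow M41 library the colonoid call moved from Tnc (adjusted p = 0.00102) to Thbs1 (adjusted p = 0.000718), so which of the pair passes in a genotype rests on values close to the threshold.

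Both genotypes were then set against each other. The difference between genotypes in the response, tumoroid minus colonoid, was 0.66 (95% interval -0.69 to 2.01) on the log2 scale for Thbs1 and -1.94 (95% interval -3.92 to 0.05) for Tnc, and neither passed (both adjusted p = 1), where 0.00883% of genes did. In vehicle, tumoroids differed from colonoids by -0.87 (95% interval -1.97 to 0.24) in log2 Thbs1 and by 0.15 (95% interval -1.47 to 1.77) in log2 Tnc, and neither member was called at the adjusted p of 0.01 and log2 ratio of 1 used there, with 0.141% of genes called. The intervals are wide and leave room for differences of 2-fold and more in Thbs1 and in Tnc.

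The question of dose gave a pattern that differed by line. Pooled over genotypes, 8 µM against 4 µM gave a log2 difference of 0.46 (SE 0.37, adjusted p = 0.542) for Thbs1 and 0.07 (SE 0.54, adjusted p = 0.959) for Tnc, and no member was called at an adjusted p of 0.05, with 0.451% of genes called. In colonoids Thbs1 was higher at 8 than at 4 µM in lines M41 (9.20-fold) and M40 (4.04-fold) and lower in line M1 (0.744-fold). In tumoroids it was lower at 8 µM in line F11 (0.2999-fold) and line M3 (0.772-fold) and higher in line M14 (1.07-fold), and Tnc was lower at 8 µM in 3 of 3 tumoroid lines. A comparison of the doses within each genotype, chosen after these values were seen, gave log2 differences of 1.59 (SE 0.52, adjusted p = 0.232) for Thbs1 in colonoids and -0.67 (SE 0.52, adjusted p = 1) in tumoroids. The difference between those differences was -2.26 (SE 0.73) for Thbs1 and -2.67 (SE 1.08) for Tnc, with an adjusted p of 0.93 for each, so an opposite course with dose was not established for either gene.

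The 5-FU libraries put the same question to another drug. Thbs1 rose with 5-FU too. It stood at 3265, 3809 and 3840 CP20M in colonoid lines M41, M40 and M1 and at 1699, 7615 and 3754 CP20M in tumoroid lines F11, M3 and M14, above every vehicle library. Its log2 ratio of 2.30 (SE 0.38, adjusted p = 0.0035) passed the threshold of 0.05 with a 1.5-fold change, where 2.35% of genes were called and 1.12% lay higher in all 6 5-FU libraries than in all 6 vehicle libraries. Without tumoroid line M3, which had the highest value, the call was lost at a log2 ratio of 2.10.

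Tnc with 5-FU was 164, 32 and 62 CP20M in colonoids and 19, 64 and 216 CP20M in tumoroids. It was higher than its own vehicle in 6 of 6 lines, as were 14.2% of genes tested. Line F11, at 19 against 14 CP20M, barely moved. The log2 difference of 1.62 (SE 0.56, adjusted p = 0.136) did not pass, and passed with the line as a block (adjusted p = 0.0205) and in edgeR on the recovered reads, which estimated 3.299 (adjusted p = 0.0209).

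Set directly against 5-FU, 8 µM regorafenib gave higher Thbs1 in 5 of 6 lines and higher Tnc in 5 of 6 lines. The log2 differences were 0.90 (SE 0.38, adjusted p = 0.133) for Thbs1 and 1.57 (SE 0.56, adjusted p = 0.0744) for Tnc, and neither member was called, where 8.78% of genes were. With the line as a block Tnc passed (adjusted p = 0.0113) and Thbs1 did not (adjusted p = 0.0836). The vehicle libraries are shared by the regorafenib and 5-FU comparisons, so their values for Thbs1 and Tnc are given side by side and not as independent evidence.

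The other 4 members stayed near the floor of the organoid data. Sparc, the collagen-binding protein, ran from 0 to 11 CP20M and had 24 reads in total over vehicle, regorafenib and 5-FU libraries. Postn ran from 0 to 107 CP20M and was at 0 in 3 of 3 vehicle tumoroid libraries. Over vehicle, 4 and 8 µM it was 4, 28 and 107 CP20M in colonoid line M40 and 0, 9 and 39 CP20M in tumoroid line M3. In the other lines Postn did not exceed 13 CP20M, and line M41 at 8 µM, the highest for Thbs1 and Tnc, held 2 CP20M. Thbs2 ran from 0 to 115 CP20M, with the highest value in a 5-FU colonoid library. With the filter on low values dropped, none of these passed over both genotypes, with log2 differences of 0.12 (SE 0.07, adjusted p = 0.352) for Sparc, 0.38 (SE 0.35, adjusted p = 0.549) for Postn and -0.37 (SE 0.31, adjusted p = 0.512) for Thbs2. A change in them across the lines was not detectable at this depth.

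Thbs3 was low but present in every organoid library, at 7 to 79 CP20M. In vehicle it stood at 28, 29 and 35 CP20M in the lowest, middle and highest colonoid line and at 41, 44 and 58 CP20M in the tumoroid lines. With 8 µM it was 7, 10 and 14 CP20M in colonoids (3, 2 and 7 reads) and 11, 25 and 33 CP20M in tumoroids (4, 20 and 31 reads). These values were below the vehicle of the same line in 6 of 6 lines, while with 4 µM Thbs3 was below in 4 of 6. At 4 µM the value of line M41, 79 CP20M, rested on 2 reads. The share of all genes lower in 6 of 6 lines at 8 µM was not computed, so the direction of Thbs3 is description only. Without the filter the log2 difference of Thbs3 over both doses was -0.45 (SE 0.24, adjusted p = 0.326) and did not pass.

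**Figure D3:**
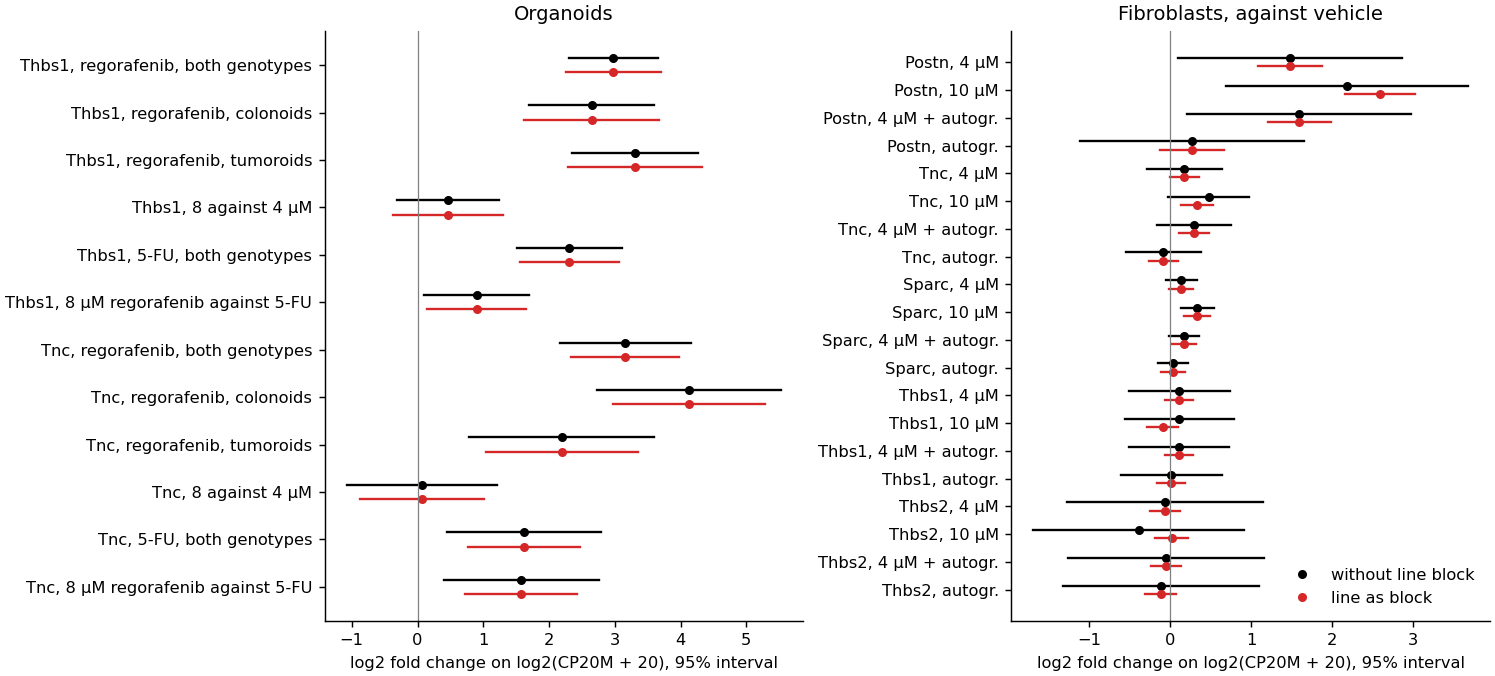
Log2 ratios (log2 fold changes) of the tested members with 95% intervals. Shown are the regorafenib, dose and 5-FU comparisons in organoids (Thbs1 and Tnc) and the comparisons against vehicle in fibroblasts (the 5 members other than Thbs3). Each comparison is drawn without the line block and with the line as a block. Contrasts between genotypes are not drawn. Thbs1 and Tnc lie far above 0 with regorafenib in organoids, and in fibroblasts Postn alone exceeds a log2 ratio of 1.

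In the fibroblasts Postn rose with the same drug, while Thbs1 showed no change beyond the spread between lines. Thbs1 in vehicle stood at 197602, 159889, 137283 and 93994 CP20M in lines M3, M3(2), M1(2) and M11. With 4 µM it was 221045, 174980, 145247 and 99530 CP20M in the same order, and with 10 µM 163689, 156298 and 141915 CP20M in M3, M3(2) and M1(2). Values at 10 µM were within the range of vehicle, and lines differed more than treatments, with line M3 at 2.10 times line M11 in vehicle. The log2 difference was 0.11 (95% interval -0.51 to 0.73) at 4 µM and 0.11 (95% interval -0.56 to 0.78) at 10 µM, which as fold changes is 0.704 to 1.66 and 0.680 to 1.72. With the line as a block the 10 µM difference took the opposite sign, at -0.09, and was not called either.

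Postn, the activated-fibroblast product, was higher with regorafenib in every line, as were 18.6% of genes at 4 µM and 29.5% at 10 µM. In vehicle it stood at 4002, 2923, 9984 and 18417 CP20M in lines M3, M3(2), M1(2) and M11, a range of 6.30-fold between lines. With 4 µM it was 19650, 7760, 21444 and 40019 CP20M, which is 2.15 to 4.91 times the vehicle of the same line, and with 10 µM 31095, 25104 and 38169 CP20M in M3, M3(2) and M1(2), which is 3.82 to 8.59 times. The 10 µM libraries all lay above all vehicle libraries, whereas the 4 µM libraries overlapped them.

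At 10 µM the log2 ratio of Postn was 2.18 (SE 0.71, adjusted p = 0.0486), 4.54-fold, which passed the threshold of 0.05 with a 1.5-fold change, where 7.33% of genes were called. It was the 1 member called of 5 tested. With the line as a block it was 2.59 (SE 0.20, adjusted p = 7.05e-08). By edgeR with TMM factors on the recovered reads, without the block, it was 1.86 and not called (adjusted p = 0.0914). Without the block the call was also lost when line M3 (adjusted p = 0.328), M3(2) (0.123) or M1(2) (0.246) was left out, and kept without M11 (0.00388), the line that had no 10 µM library and the highest vehicle value.

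At 4 µM the log2 ratio of Postn was 1.48 (SE 0.65, adjusted p = 0.325) without the block, so no member was called, where 1.02% of genes were. With the line as a block it was 1.48 (SE 0.19, adjusted p = 3.12e-05) and called. Between 10 and 4 µM Postn was higher by 1.58 to 3.24 times in 3 of 3 lines, where 19.6% of genes were higher in all lines. That difference was 0.70 (SE 0.71, adjusted p = 0.764) without the block, where no member and 0.145% of genes were called, and 1.11 (SE 0.20, adjusted p = 0.0025) and called with it.

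Tnc and Sparc differed by less. Tnc in vehicle stood at 66483, 62681, 71843 and 49644 CP20M in lines M3, M3(2), M1(2) and M11, and with 10 µM at 95457, 76074 and 88963 CP20M in the first 3 lines. Sparc in vehicle stood at 77625, 66544, 77703 and 69725 CP20M, and with 10 µM at 88538, 96513 and 90722 CP20M. Both were above all vehicle libraries in every library at 10 µM, as 12.2% of genes were, Postn among them. The log2 difference was 0.48 (SE 0.24, adjusted p = 0.202) for Tnc and 0.34 (SE 0.10, adjusted p = 0.027) for Sparc, and the latter was below the 1.5-fold threshold, so neither was called. With the block these were 0.33 (adjusted p = 0.00897) and 0.33 (adjusted p = 0.00255), both still below the fold threshold. At 4 µM Tnc was 95816, 71500, 69744 and 50388 CP20M and Sparc 91018, 69522, 85182 and 76181 CP20M in the 4 lines, which overlapped vehicle, with log2 differences of 0.17 (SE 0.22) and 0.14 (SE 0.09).

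For Tnc the comparison within each table gave 3.16 on the log2 scale in organoids over 4 and 8 µM and 0.48 in fibroblasts at 10 µM, from vehicle medians of 1.16 and 1.80 CP20M per kilobase in the organoids against 8310 in the fibroblasts. Doses and durations differed, and the difference between the tables was not tested.

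Thbs2 differed more between lines than between treatments. In vehicle it was 2274, 2422, 4468 and 9248 CP20M in lines M3, M3(2), M1(2) and M11, and in each of the treatments that all 4 lines received M11 was the highest and M1(2) the next. The difference at 10 µM was -0.39 (95% interval -1.69 to 0.92) on the log2 scale, and 0.02 with the line as a block.

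Thbs3 was lower with regorafenib in every fibroblast line, as were 19.4% of genes tested at 4 µM and 37.3% at 10 µM. Its level was below the filter. In vehicle it stood at 103, 88, 88 and 163 CP20M in lines M3, M3(2), M1(2) and M11, with 4 µM at 51, 43, 69 and 49 CP20M, and with 10 µM at 61, 77 and 53 CP20M in the first 3 lines. All 7 regorafenib values were below all 4 vehicle values. Of the 11032 genes tested, 392 lay wholly below vehicle at 4 µM and 1782 at 10 µM, so such a separation was common at 10 µM. With autogramin-2 alone Thbs3 was 143, 118, 118 and 131 CP20M. Fitted without the filter, over 35032 genes, the log2 difference was -0.81 (SE 0.26, adjusted p = 0.279) at 4 µM and -0.62 (SE 0.28, adjusted p = 0.308) at 10 µM, neither of which passed. Of its exon bases 6.6% are shared with Mtx1 on the other strand.

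**Figure D4:**
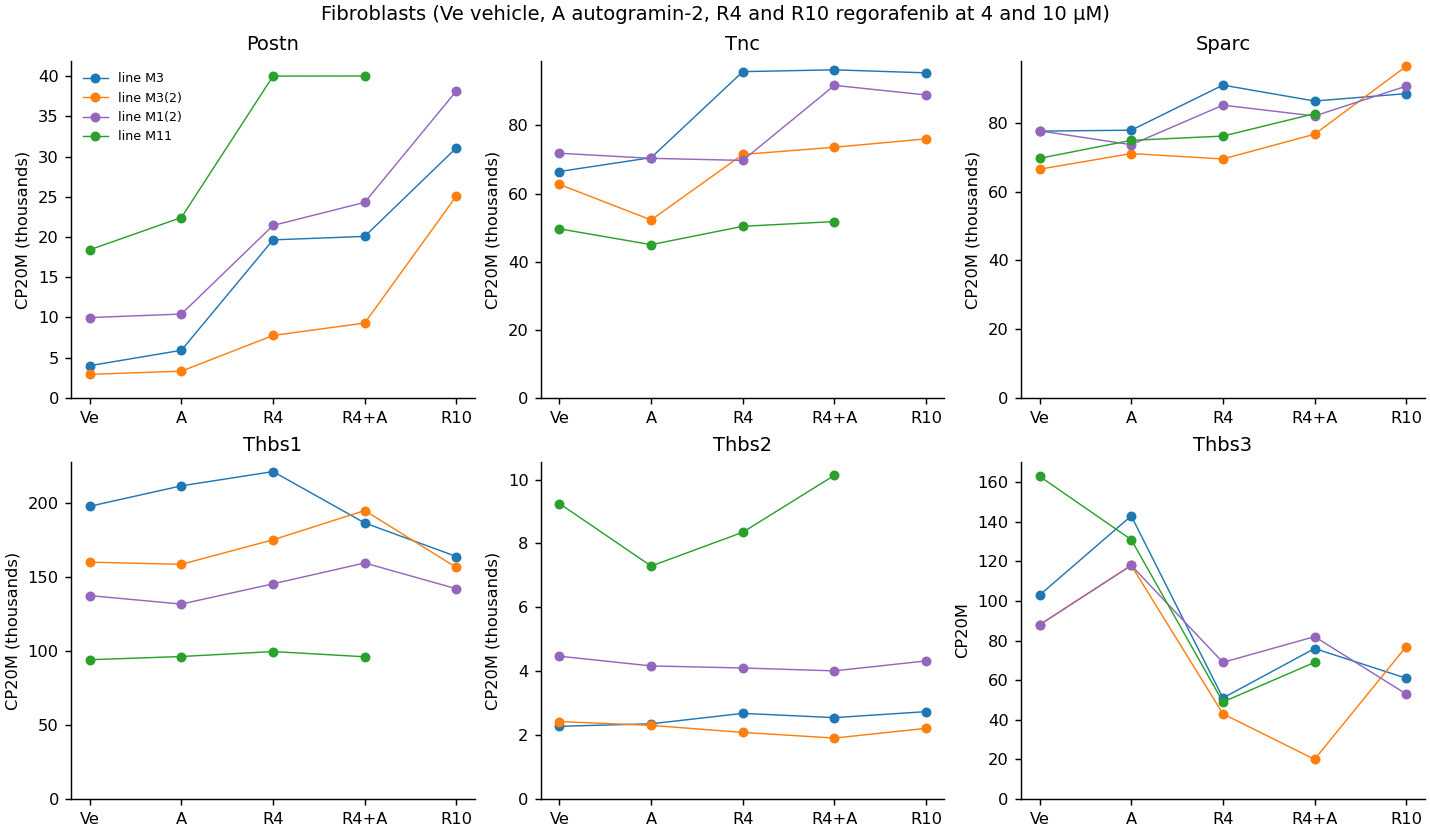
The 6 members in the 19 fibroblast libraries, in CP20M, by treatment, with 1 line joining the libraries of each fibroblast line. Postn is higher with regorafenib in every line, Thbs2 is highest in line M11 and next in line M1(2) wherever M11 was treated, and all 7 libraries with regorafenib alone lie below the 4 vehicle libraries for Thbs3.

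Autogramin-2 was added to ask whether blocking autophagy altered the response. Alone it led to no call in any member. Postn was 5918, 3320, 10423 and 22431 CP20M in lines M3, M3(2), M1(2) and M11. That is 1.04 to 1.48 times the vehicle of the same line, higher in 4 of 4 lines, as were 8.11% of genes. Without the block the log2 difference of Postn was 0.27 (95% interval -1.11 to 1.66), an interval that includes the spread between lines. The other 4 tested members had differences between -0.12 and 0.03. By limma no gene was called (0% of 11032), nor by edgeR or DESeq2 on the recovered reads, and 120 genes had an unadjusted p under 0.05 by limma.

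Together with 4 µM regorafenib, autogramin-2 gave Postn values of 20083, 9306, 24318 and 40031 CP20M, which is 1.00 to 1.20 times those of 4 µM regorafenib alone in the same line. Against vehicle that was a log2 ratio of 1.60 (SE 0.65, adjusted p = 0.214), and no member was called, where 1.66% of genes were, but with the line as a block Postn was called (SE 0.19, adjusted p = 1.37e-05). Against 4 µM regorafenib alone Postn differed by 0.12 (95% interval -1.26 to 1.502) on the log2 scale, and none of the 5 members was called, where 0.00906% of genes were. Tnc with the combination was 96347, 73608, 91786 and 51782 CP20M, above the vehicle of its line in 4 of 4 lines, as were 18.3% of genes. Its log2 difference was 0.30 (SE 0.22, adjusted p = 0.551).

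Markers of contractile cells were higher with regorafenib in every line, as Postn was. In every line their sum was lower with autogramin-2 alone than in vehicle, while Postn was higher. Of the 11032 genes tested, 1642 were lower and 895 higher in every line there. The sum was also lower with the combination than with 4 µM regorafenib alone in every line, while Postn was not. In that comparison 1779 genes were lower and 1118 higher in every line. Postn was called in neither comparison, and in line M11 it stood at 40031 against 40019 CP20M in the latter. A different course of these markers and Postn with autogramin-2 was therefore not established. The summed level of Myh11, Des, Cnn1 and Rgs5 was 2455 to 7360 CP20M in vehicle, 7207 to 16849 with 4 µM, 11026 to 14975 with 10 µM, 4418 to 10734 with the combination and 1644 to 5829 with autogramin-2 alone. Cnn1 made up most of it, with medians of 3839 CP20M in vehicle and 8814 at 10 µM, and Rgs5, the pericyte marker, did not exceed 38 CP20M in any library. The macrophage and leukocyte list was lower with regorafenib, at 1045 to 5313 CP20M in vehicle against 582 to 611 at 10 µM. Endothelial markers (5 genes) were higher at 4 µM than in the vehicle of each of the 4 lines, at 1538 to 25435 CP20M against 1011 to 8895. At 10 µM they were 1350, 5599 and 1619 CP20M in lines M3, M3(2) and M1(2), higher than vehicle in 1 of the 3 lines. Pdgfra, a fibroblast marker and itself a receptor that regorafenib targets, had a median of 2126 CP20M in vehicle, 332 at 4 µM and 303 at 10 µM, while the 8 fibroblast markers together summed to 128577 to 185853 CP20M in vehicle and 129367 to 136896 at 10 µM. The part of any of these in the Postn values was not tested.

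Other matricellular genes gave a wider view of the class. From a list of 23 (tenascins, osteopontin, the SPARC relatives, the CCN genes and fibulins among them), 8 were tested in organoids with regorafenib over both genotypes, and 2 rose and none fell, where 4.97% of all genes were called. These were Wisp1, a CCN gene, with a log2 ratio of 2.34 (SE 0.35, adjusted p = 0.000253), and Ctgf, another CCN gene and a target of TGF-beta and YAP, at 1.37 (SE 0.22, adjusted p = 0.000413). The median over the 8 was 0.99, against -0.10 over all genes tested. With 5-FU 2 of the 8 rose, Wisp1 at 1.80 (SE 0.40, adjusted p = 0.0177) and Spp1, which encodes osteopontin, at 2.34 (SE 0.61, adjusted p = 0.0441), where 2.35% of all genes were called, and the median was 0.73. Wisp1 was also the 1 gene of the list called between 8 and 4 µM, at 2.201 (SE 0.41, adjusted p = 0.0347), where 0.451% of all genes were.

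In the fibroblasts the same list moved in both directions at 10 µM. Of 15 tested, 4 rose and 2 fell, where 7.33% of all genes were called, and the median was 0.60 against -0.04 over all genes. Spp1 fell by 4.82 in log2 terms, 28.2-fold (SE 0.41, adjusted p = 2.73e-06), and Tnxb, which encodes tenascin X, fell by 1.83 (SE 0.32, adjusted p = 0.00151), whereas Smoc2, a SPARC relative, rose by 2.61 (SE 0.50, adjusted p = 0.00251). The others that rose were Ctgf, Fstl1 and Wisp2. At 4 µM 1 of the 15 rose, Wisp2 at 0.92, and 1 fell, Spp1 at -3.31, where 1.02% of all genes were called, with a median of 0.32. Spp1 is also made by macrophages, whose marker list was lower over the same libraries, as given above, and the part of such cells in the Spp1 values was not tested.

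Receptors and partners of these proteins were read from a list of 18. In organoids with regorafenib 13 were tested and 1 rose, Sdc1, the epithelial syndecan and a co-receptor for thrombospondin and tenascin, at 0.72 (SE 0.10, adjusted p = 0.000152), with a median of 0.29 over the list. Over all genes 4.97% were called. With 8 µM regorafenib against 5-FU 3 of the 13 were higher, Itgb5, Lrp1 and Calr, where 8.78% of all genes were called. In fibroblasts at 10 µM 17 were tested, 3 rose and 5 fell, where 7.33% of all genes were called, with a median of -0.37. Ptprz1, a receptor phosphatase that binds tenascin C, rose by 4.38 (SE 0.39, adjusted p = 3.42e-06), and Itga8, an integrin subunit that pairs with beta1 and binds tenascin C and fibronectin, rose by 2.79 (SE 0.24, adjusted p = 2.73e-06). Cd36, the type B scavenger receptor for THBS1, fell by 1.82 (SE 0.50, adjusted p = 0.0223). The others that fell were Itga2, Itgb3, Sdc4 and Cd47, and the other that rose was Sdc1. Itga8 and Ptprz1 were also called at 4 µM, at 1.84 (adjusted p = 0.000257) and 3.03 (adjusted p = 0.000257), and with the combination at 1.19 and 3.00. These comparisons share the vehicle libraries.

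The pattern across libraries was compared with that of every gene past the filter, by Spearman's rho, as a description. Over the 24 organoid libraries, which share lines and depths, Thbs1 was most like Gm29233 (0.990), the antisense partner that overlaps its exons and ran at 6.79% to 8.81% of its group median, then Ahnak2 (0.917) and Cald1 (0.896). Tnc was most like Rora (0.896), Ormdl3 (0.894) and Bmp1 (0.890), and its rho with Thbs1 was 0.727. Over the 19 fibroblast libraries Postn was most like Tmem43 (0.968), Sspn (0.954) and Cd81 (0.951), and Sparc was most like Tmem38a (0.891), Tmem63a (0.874) and Hspb8 (0.865). Thbs2 was most like Epb41l2 (0.967), Nrcam (0.960) and Ttyh1 (0.958), and Tnc was most like its antisense partner 8030451A03Rik (0.918), then Pdlim7 (0.909) and Hs6st2 (0.907). Thbs1 was again most like Gm29233 (0.986), then Rara (0.930) and Bmpr1b (0.919), and among the members it ran opposite to Thbs2 (-0.800), both being ordered by line. Thus the members did not share a pattern in the fibroblasts, where their rho with each other ran from -0.800 to 0.668.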

How the data were processed

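The deposited values were made by the authors as follows, per the labels and the methods of the study. Reads (2 × 100 bases) were trimmed with Trimmomatic 0.36, aligned to GRCm38 with STAR 2.5.3a and counted per gene with HTSeq 0.9.1. The authors then scaled each library's counts to 20000000 (CP20M) and rounded up, which gives a signal without length correction, although the study describes CP20M as per kilobase. Sources differ on the organoid library kit, as the study names a directional NEB kit and the labels name Ovation SoLo.

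Whole reads were recovered from the value steps for 99.61% to 100% of values per library. Differences were tested with limma 3.58.1 (R 4.3.3) on log2(CP20M + 20), for genes with at least 200 CP20M in at least 2 libraries of the fit, with Benjamini-Hochberg adjustment over all genes tested. A fit of the 18 vehicle and regorafenib organoid libraries covered 11320 genes, that of all 24 organoid libraries 11562 and that of the 19 fibroblast libraries 11032. Thresholds were those given in the report. Alternatives were edgeR 4.0.16 and DESeq2 1.42.0 on recovered reads, a pseudocount of 5, no filter, a replicate block by line, and leaving out each line or the shallowest library. Libraries of 1 line share their origin and deviated together, with a mean correlation of deviations of 0.429, 0.503 and 0.719 in the 3 fits against -0.065, -0.083 and -0.229 between lines, so the lines pair the libraries. The main fits had no block, as the study's methods name none, and the blocked value is printed where it changes a call. The fit was also run on simulated counts with known changes. These were drawn without shared deviations between libraries of 1 line, so they could not test the unblocked fit in that respect. No 2 libraries of a group were copies of each other, with a chi-square per gene of 8.86 or more over 51 pairs.

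Named genes were the 6 members, all genes that overlap them, the 3 genes past the threshold with the largest change from each of the 2 lists, in regorafenib over both genotypes and in fibroblasts at 10 µM, and the 3 genes most like each tested member. Further list genes past the threshold were named after their values were seen. The members and lists were chosen with earlier results of these data known. Fibroblast columns were matched to samples by library name, 1 fibroblast title lacks the line, and the tumoroid 5-FU libraries, whose titles say colonoid, were placed by genotype label. Intervals cover 95%.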

Additional observations from a re-analysis of the deposited data

How the results depend on the processing

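The changes in Thbs1 and Tnc over both genotypes kept their direction under every alternative, and Postn in fibroblasts kept its direction too, but several calls sat near a threshold. Of the 2 members called with regorafenib over both genotypes, 1 to 2 were called when 1 line was left out, Tnc being lost without line M40, F11, M3 or M14 at log2 fold changes of 2.94 to 3.39. In colonoids 1 was called, 0 in edgeR with TMM or RLE factors and without the filter, 2 in DESeq2, in the fit of 24 libraries and with the shallowest library left out under the block, and 0 in each of the 6 fits that left out a line. In tumoroids 1 was called, 0 in edgeR with either factor, without the filter, with a pseudocount of 5 and under the replicate block, 2 in DESeq2, and 0 to 1 without 1 line. With 5-FU 1 was called, 2 in edgeR with either factor, in DESeq2 and under the block with or without the shallowest library, and 0 to 1 without 1 line. For 8 µM regorafenib against 5-FU 0 were called, 1 under the block, 2 in DESeq2 and with the shallowest library left out under the block, and 0 to 1 without 1 line. In fibroblasts at 10 µM 1 was called, 0 in edgeR with either factor and without the filter, and 0 to 1 without 1 line. At 4 µM, between 10 and 4 µM and for the combination against vehicle 0 were called, and 1, Postn, under the block. The cause of these moves was not tested. The block changed no other call of a member, and could not be fitted to tumoroids against colonoids in vehicle, where lines do not cross genotypes. Over all genes tested, the 563 called with regorafenib over both genotypes became 886 to 889 in edgeR, 1536 in DESeq2, 155 to 642 without 1 line and 1127 without the shallowest library (1428 under the block), which also took colonoids from 165 to 481 and tumoroids from 23 to 171, the 272 called with 5-FU became 427 to 432, 591 and 26 to 254, with 584 under the block and 139 without the filter, and the 809 called in fibroblasts at 10 µM became 1519 under the block and 358 to 1118 without 1 line.

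Signs that turned belonged to differences that were not called in any fit. For Tnc between 8 and 4 µM in organoids they were -0.297 without line M41, -0.0913 without M3, -0.0037 without F11 and -0.0878 with the shallowest library left out under the block. For fibroblasts at 10 µM they were -0.0933 for Thbs1 and 0.0179 for Thbs2 under the block, and -0.0855 and 0.0285 without M11. Between 10 and 4 µM they were 0.0808 for Thbs2 under the block and 0.0634 without M11, and 0.128, 0.0493 and 0.0294 for Thbs1 without M3, M3(2) and M1(2). For autogramin-2 Thbs1 was -0.0138 without M3. For the combination against vehicle Thbs2 was 0.0347 in edgeR with TMM factors, 0.048 with RLE factors, 0.0476 in DESeq2 and 0.046 without M3(2). For the combination against regorafenib Thbs1 was 0.0050 in edgeR with TMM factors, 0.0084 with RLE factors and in DESeq2, 0.0785 without M3 and 0.0139 without M11, Thbs2 was -0.0772 without M11 and Sparc was -0.0037 without M3(2).

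The limits are those of 3 or 4 lines a group, of low counts (43 vehicle reads of Tnc in organoids) and of a 10 µM group without line M11. With 200 CP20M as the filter 4 members were not tested in organoids.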
